A study of Mus musculus with 6 samples.

Results

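Trimethylation of histone H3 at lysine 27 (H3K27me3) was followed in mouse embryonic fibroblasts (MEFs) as lists of peaks, the stretches of genome over which a chromatin immunoprecipitation sequencing (ChIP-seq) library was called enriched. The peaks described are those of the 2 libraries titled H3K27me3 that lie outside the mitochondrial genome and share no base with a peak of either input DNA list. They number 1585 of the 2063 peaks listed for the mark and of the 38760 peaks listed in all 6 libraries. The treated library gave 587 of its 821 peaks, and the untreated library gave 998 of its 1242. The MEFs were of the C57BL/6 strain, with no other allele named. The first group was treated with the chemical combination that the labels call 6TCF and sampled on day 6, and the second was the untreated control of the same day. The growth protocol given with all libraries describes a medium with 15% serum and 40 ng/ml basic fibroblast growth factor. Neither the compounds in 6TCF nor any pooling of embryos is stated in the labels. With 1 library in each group there is no spread between replicates, so the treatment was not tested. Shares are given with 95% Wilson intervals, for counting error alone and as if peaks were independent of each other.

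H3K27me3 is written by Polycomb repressive complex 2, whose EZH1 or EZH2 subunit is the methyltransferase, and it is read by Polycomb repressive complex 1. In fibroblasts the mark is known for wide blankets over developmental regulator genes that the cells keep silent. It is also known for regions where it lies together with H3K4me3, the mark of active and poised promoters. The titles and the extraction protocol name H3K27me3, whereas the antibody field of the same libraries names H3K4me1, a mark known from enhancers and from the flanks of promoters. The lists did not show wide blankets: the widest peak was 3354 bp, and most peaks stood alone. The peaks are therefore called H3K27me3 by their title, and which mark they stand for was not settled. H3K4me3 peaks are likewise called so by title alone, because H3K4me2 is entered as their antibody. Their mark was not settled either, and overlaps with H3K4me3 below are overlaps with the lists of that title. Peaks were not assigned to genes, so regions are named by position in the mouse build mm9, and the fibroblast identity of the cells was not checked against marker genes.

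The untreated list held more peaks, and the excess lay in the wider ones. After the input filter the untreated list held 998 peaks against 587 and covered 300.8 kb against 116.7 kb, a ratio of 2.58. The width of a peak in bp is all that the lists give about it beside its position. The median width was 231 bp in untreated cells, with a middle 50% of peaks from 150 to 376.75 bp. In treated cells the median was 149 bp, with a middle 50% from 137 to 205 bp. Chromatin had been sheared to fragments of 600 bp on average, longer than either median. Input filtering took away narrow peaks in both conditions, with medians of 146.5 bp among the 234 treated and 148 bp among the 239 untreated peaks that it dropped.

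Split at 200 bp, a width chosen after the lists had been seen, the 2 conditions had nearly the same number of narrow peaks, 436 treated and 431 untreated. Over 200 bp there were 151 treated and 567 untreated peaks, a ratio of 3.75. The ratio was higher in the wider classes than in the narrow ones: it was 2.58 for peaks over 200 and up to 300 bp (80 treated, 206 untreated) and 4.02 for those over 300 and up to 500 bp (56 and 225). Over 500 and up to 1000 bp it was 10.1 (12 and 121), and over 1000 bp it was 5 (3 and 15). At the other end, peaks of up to 150 bp were more numerous in treated cells, 304 against 254. The input lists held 604 treated and 740 untreated peaks, a ratio of 1.23, and were narrow in both conditions. Among input peaks 20.5% (17.5 to 23.9) of the treated and 16.5% (14.0 to 19.3) of the untreated list were wider than 200 bp. Among H3K27me3 peaks the shares were 25.7% (22.4 to 29.4) for treated and 56.8% (53.7 to 59.9) for untreated cells. In this share the treated H3K27me3 list was nearer to input than the untreated list was. At the narrow end it differed from input: 19 of 587 treated H3K27me3 peaks (3.24%) and 97 of 604 treated input peaks (16.1%) were up to 100 bp wide. Depth and antibody yield are unknown for these libraries, and their part in the widths was not tested.

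**Figure D1:**
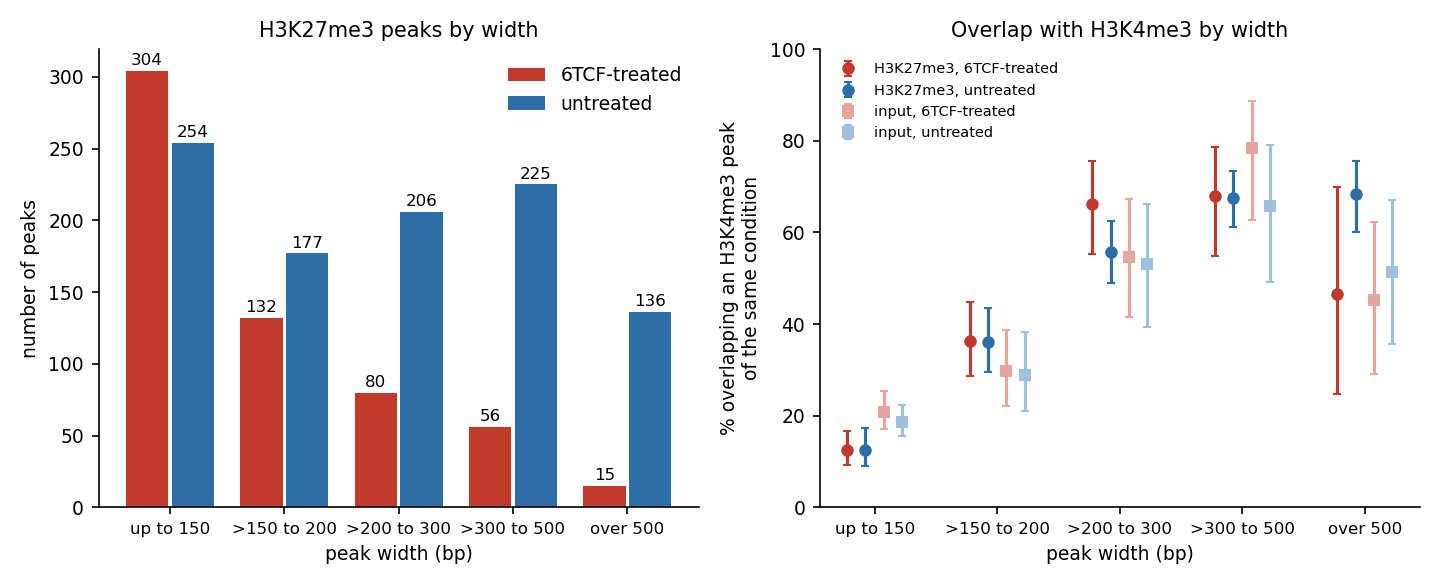
Left, number of H3K27me3 peaks clear of input in 5 classes of peak width (bp) in 6TCF-treated (red) and untreated (blue) cells; treated peaks outnumber untreated ones up to 150 bp and untreated peaks outnumber treated ones in each wider class. Right, percent of H3K27me3 (circles) and input peaks (squares) in the same width classes that overlap an H3K4me3 peak of their own condition, with 95% Wilson intervals; the H3K27me3 share rises from 12.5% treated and 12.6% untreated in the narrowest class to 67.9% and 67.6% over 300 and up to 500 bp, and the class over 500 bp holds 15 treated peaks.

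The excess of wider untreated peaks was spread over the genome. Of 21 chromosomes, 21 carried more untreated than treated peaks over 200 bp, although chromosome X carried 2 against 1 and chromosome Y 2 against 0. Among peaks of up to 200 bp the untreated list led on 9 chromosomes, the treated list on 8, and 4 were equal. Over all widths the largest ratio of untreated to treated numbers was on chromosome 8, with 67 against 22 peaks, a ratio of 3.05. Chromosome 17 followed with 62 against 24. Chromosome 14 had fewer untreated than treated peaks, 23 against 30, chromosome Y had 3 in each list, and the other 19 chromosomes had more untreated peaks.

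As a share of the list, chromosome 8 held 6.71% (5.32 to 8.44) of untreated and 3.75% (2.49 to 5.61) of treated peaks. H3K4me3 peaks showed no such shift, with 5.19% of untreated and 5.20% of treated peaks there. Chromosome 14 held 2.30% (1.54 to 3.43) of the untreated list and 5.11% (3.60 to 7.20) of the treated list, against 3.27% and 3.26% of H3K4me3 peaks. These 2 chromosomes were picked from 21 after their values were seen. Chromosome 11 held many peaks in both lists, 56 treated and 84 untreated. Chromosome X held few, 12 and 13, since the input filter removed 30 of its 42 treated and 30 of its 43 untreated peaks.

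**Figure D2:**
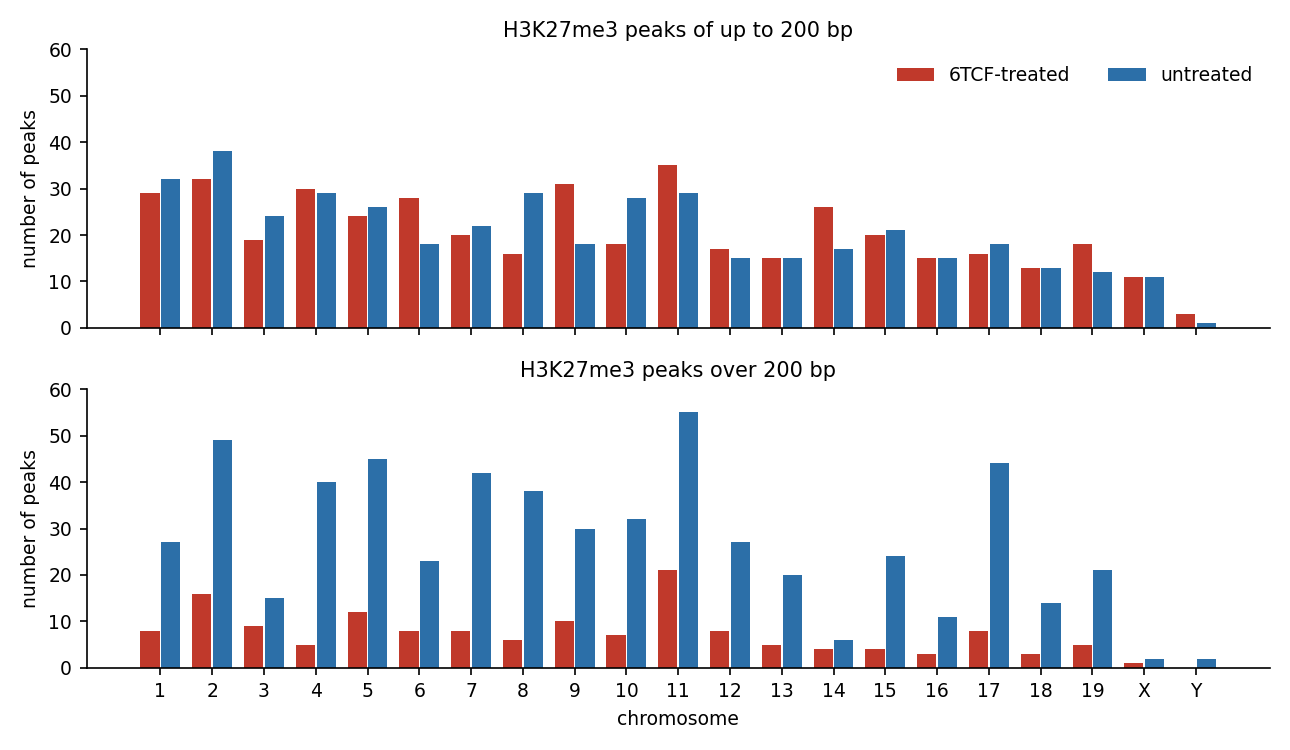
Number of H3K27me3 peaks clear of input on each chromosome in 6TCF-treated (red) and untreated (blue) cells, for peaks of up to 200 bp (top) and over 200 bp (bottom), both axes from 0 to 60 peaks. In the lower panel the untreated bar is the taller on each chromosome, and in the upper panel the order changes from chromosome to chromosome.

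In each list the widest of all was at the same place near the start of chromosome 11, 3354 bp in treated (chr11:3065191-3068544) and 3342 bp in untreated cells (chr11:3065118-3068459). It lay 3.21 and 3.14 kb from an input peak and touched no H3K4me3 peak. The second treated peak, 1832 bp (chr8:109125731-109127562), lay inside a treated H3K4me3 peak of 2801 bp. The untreated H3K4me3 peak there was 1498 bp, and an untreated H3K27me3 peak of 926 bp stood 153 bp away. Of the 10 widest treated peaks 4 touched an H3K4me3 peak of treated cells, and of the 10 widest untreated peaks 6 touched one of untreated cells.

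Several of the widest untreated peaks were far from any treated one, as were most peaks of that list. Of all untreated peaks 864 of 998 (86.6%) were over 20 kb from any treated peak, and the median gap was 767 kb. The peak of 1438 bp at chr15:37162459-37163896 was 1847 kb from the nearest treated one, and that of 1270 bp at chr1:78306735-78308004 was 3864 kb away. The peak of 1135 bp at chr4:133074521-133075655 crossed the left edge of the untreated H3K4me3 peak of 1088 bp beneath it and lay inside the treated one of 1470 bp. The peak of 1054 bp at chr4:46356022-46357075 crossed the left edge of an untreated H3K4me3 peak (1288 bp) and lay within the treated one (3562 bp). On chromosome 11 the peak of 1187 bp (chr11:98187397-98188583) overlapped the left end of a treated H3K4me3 peak of 2272 bp, and no untreated H3K4me3 peak touched it. Absence from a list does not show absence of the mark.

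Neighbouring peaks were seldom found. Peaks of a list with no more than 5 kb between them were joined into domains, which turned 587 treated peaks into 568 domains and 998 untreated peaks into 916. Domains of at least 2 peaks numbered 12 in treated cells (2.11% of domains, 1.21 to 3.66) and 71 in untreated cells (7.75%, 6.19 to 9.66). They held 31 treated peaks (5.28% of the list) and 153 untreated peaks (15.3%). Of the 71 untreated ones 63 had 2 peaks, 6 had 3 and 2 had more. Of the 12 treated ones 9 had 2 peaks, 1 had 3 and 2 had more. With input-overlapping peaks kept, the counts were 48 treated and 116 untreated domains of 2 or more peaks.

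These joined domains were short. Spans had a median of 612 bp (treated) and 1195 bp (untreated), and the longest were 6548 and 6721 bp. Peaks covered a median of 68.1% of the span in both conditions. Of the 82 gaps inside untreated domains 72 were of up to 1 kb, with a median of 346 bp, and of the 19 treated gaps 15 were, with a median of 135 bp. Peaks in untreated domains of 2 or more were wider than single ones, with medians of 338 against 209 bp. In treated cells the medians were 148 and 149 bp, so joined peaks did not stand apart in width there. With no treated peak within 5 kb were 57 of the 71 untreated domains (80.3%, 69.6 to 87.9), and with no untreated peak within 5 kb were 6 of the 12 treated ones (interval 25.4% to 74.6%). When single peaks were counted as domains too, 9.17% of untreated and 14.8% of treated domains lay within 5 kb of one of the other condition. Joined domains were thus less often alone than domains in general.

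Most joined peaks sat on H3K4me3. The span touched an H3K4me3 peak of either condition in 67 of 71 untreated and 10 of 12 treated domains. Single peaks did so in 440 of 845 untreated (52.1%) and 171 of 556 treated cases (30.8%). The units differ, since a span holds at least 2 peaks and their gaps and meets H3K4me3 more easily. Median spans were 1195 bp untreated and 612 bp treated, against 209 and 149 bp for single peaks. The part of span and peak width in this contrast was not tested. In 57 of the 71 untreated domains at least 2 of the peaks were on 1 and the same treated H3K4me3 peak, and in 38 of these they lay on both sides of its centre. On untreated H3K4me3 peaks the numbers were 38 and 26. Having at least 2 peaks on a single H3K4me3 peak was thus more frequent against treated than against untreated H3K4me3. How often this went with a pair of peaks up to 1 kb apart was not counted.

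The region at chr2:122123336-122128367 had 3 untreated peaks of 1250, 688 and 825 bp over 5032 bp, on 2 H3K4me3 peaks. Those H3K4me3 peaks were 2411 and 1609 bp wide in treated cells and 975 and 1112 bp in untreated cells. At chr15:79843173-79844770 untreated peaks of 499, 351 and 435 bp lay in a row inside an H3K4me3 peak that was 3466 bp wide in treated cells and 3043 bp in untreated cells. At chr7:26098906-26100967 the untreated peaks were 555, 525 and 488 bp. The last 2 of these overlapped a treated H3K4me3 peak of 2131 bp, and the nearest untreated H3K4me3 peak began at 26101417, past the domain's end. No treated H3K27me3 peak was within 5 kb of these 3 regions.

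On chromosome 17 a pair of untreated domains of 3 peaks, at 24624450 to 24626321 and at 36280910 to 36282886, shared a layout. In each the first peak stood outside and the other 2 on an H3K4me3 peak of similar width in treated and untreated cells (1604 and 1616 bp, and 1254 and 1393 bp). The longest untreated domain without a treated peak nearby, 5471 bp at chr2:29602733-29608203, was joined from peaks of 204 and 275 bp that covered 8.76% of it. A domain of 2211 bp at chr8:89993682-89995892 held peaks of 735 and 652 bp that covered 62.7%, of which the second overlapped H3K4me3 of both conditions.

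In treated cells the longest domain without an untreated peak nearby was at chr11:94813629-94816075, with peaks of 362, 741 and 1104 bp that covered 90.2% of 2447 bp. All 3 lay inside a treated H3K4me3 peak of 3278 bp, and the untreated H3K4me3 list had no peak there. Both marks were therefore listed in treated cells only at this place, and the nearest untreated H3K27me3 peak was 195 kb away. The next treated domains of this kind were under 1 kb, for example peaks of 347 and 175 bp over 597 bp at chr2:153317609-153318205, on H3K4me3 of both conditions.

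The domains with the most peaks were the same in both lists and were made of narrow peaks. At chr11:48565737-48567050 treated cells had 6 peaks of 84, 322, 83, 74, 158 and 184 bp within 1314 bp, and untreated cells had 5 peaks of 88, 324, 89, 85 and 391 bp within 1322 bp. All lay in an H3K4me3 peak, 1894 bp wide in treated cells and 1873 bp in untreated cells. At chr8:108188767-108195314 both lists had 4 peaks, of 110, 186, 123 and 141 bp in treated and 200, 88, 123 and 199 bp in untreated cells, and the third had the same first and last base in both. Each treated peak sat on an H3K4me3 peak of its own, of 386 to 859 bp, while the second of the 4 untreated peaks touched no untreated H3K4me3 peak. The nearest input peak was 338 kb away on chromosome 8 and 1690 kb away on chromosome 11.

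A ninth region with 3 joined peaks, at the start of chromosome 18, lay among input peaks and is not drawn. Untreated peaks of 150, 94 and 258 bp lay there at chr18:3004541-3009675, and treated cells had 2 peaks of 61 and 86 bp, the second of which overlapped the untreated peak of 94 bp.

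**Figure D3:**
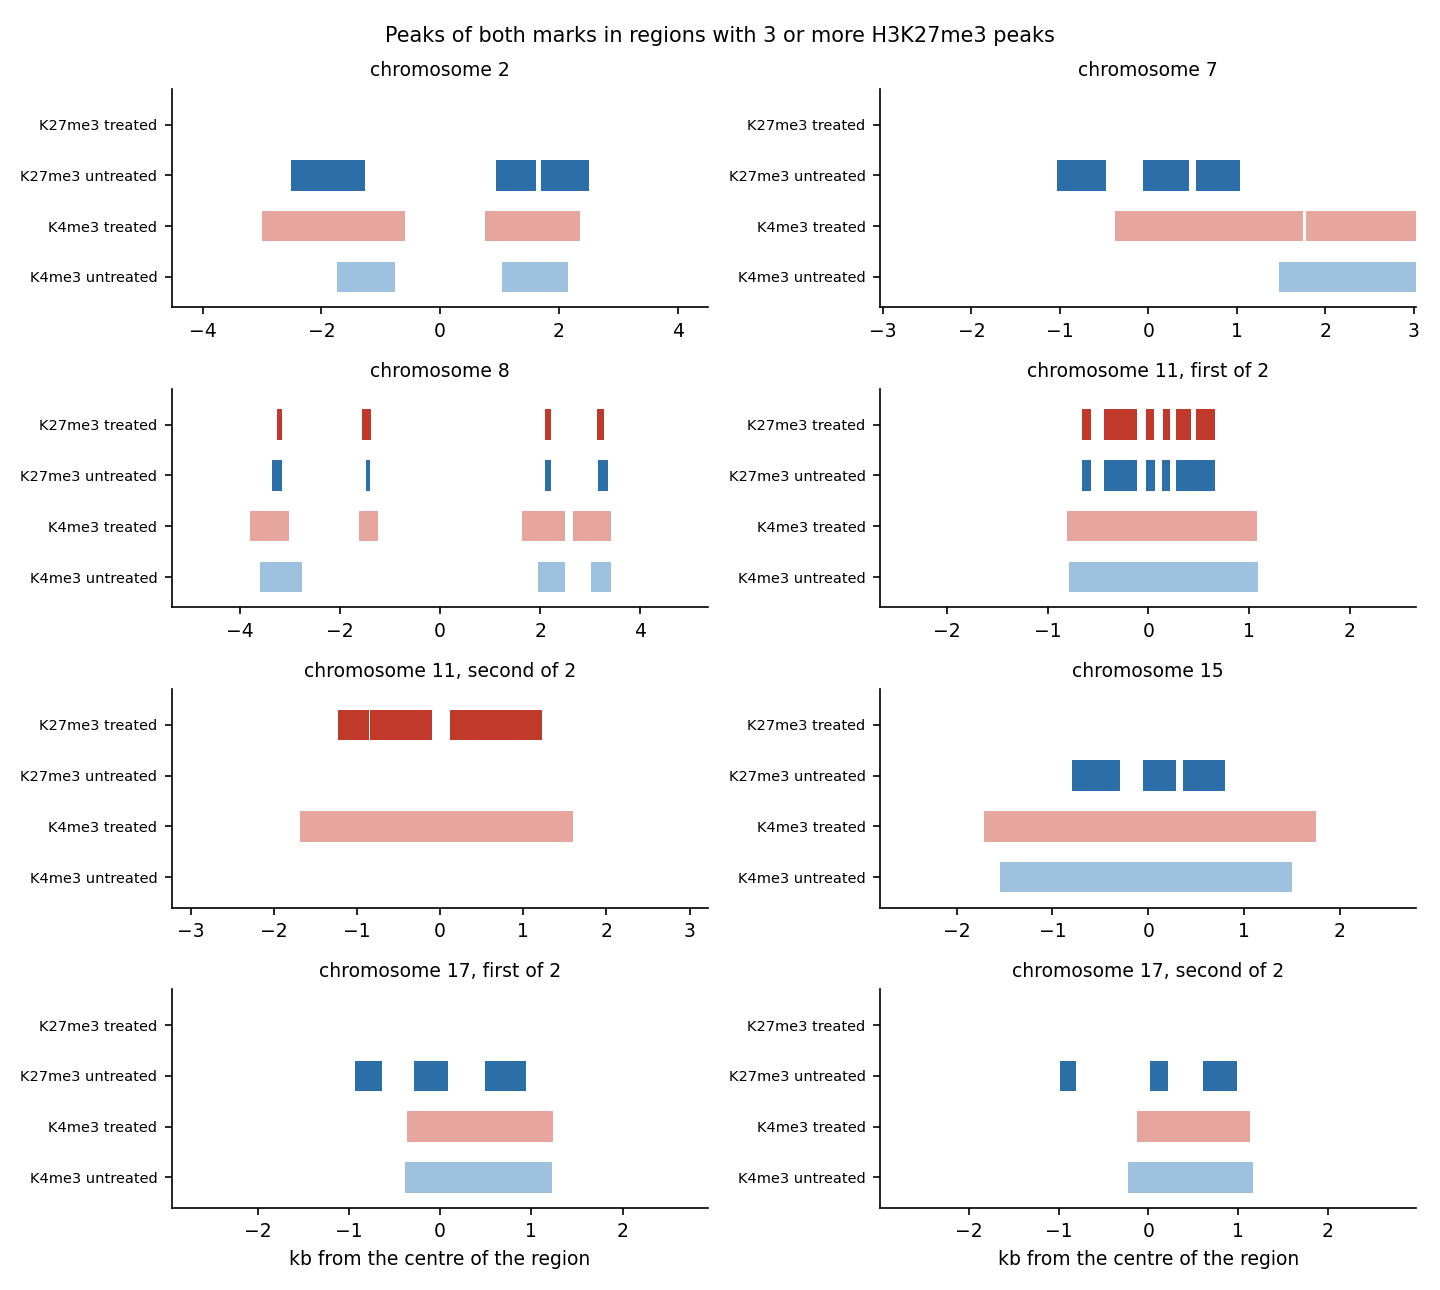
Peaks of H3K27me3 (dark) and H3K4me3 (pale) in 6TCF-treated (red) and untreated (blue) cells in 8 of the 9 regions where a list had at least 3 H3K27me3 peaks joined into a domain, by distance in kb from the centre of the region. On chromosome 8 and in the first region on chromosome 11 both conditions have narrow H3K27me3 peaks at the same places, while each of the other 6 regions drawn has H3K27me3 peaks in 1 condition; some H3K4me3 peaks run past the window.

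The lists had few H3K27me3 positions in common. With a shared base as the rule, 44 treated and 44 untreated peaks recurred, which left 543 of 587 treated (92.5%) and 954 of 998 untreated peaks (95.6%) without a counterpart. By the same rule 56.9% of treated and 64.6% of untreated input peaks had no counterpart, and for H3K4me3 the shares were 10.2% and 4.71%. With input-overlapping peaks kept, 29.4% of treated and 19.6% of untreated H3K27me3 peaks recurred, against 7.50% and 4.41% without them. The input lists recurred at 43.1% and 35.4%, so the H3K27me3 lists met each other less often than the input lists did, with or without the filter.

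As a share of each list, recurrence rose with width in treated cells and little in untreated cells. Of treated peaks over 200 bp 22 of 151 recurred (14.6%, 9.82 to 21.1), and of those up to 200 bp 22 of 436 did (5.05%, 3.36 to 7.52). In untreated cells the numbers were 28 of 567 (4.94%, 3.44 to 7.04) and 16 of 431 (3.71%, 2.30 to 5.94). Over 200 bp, 22 and 28 recurring peaks were thus divided by unlike numbers of peaks, so these shares do not compare the conditions. With the same number of widest peaks in both lists, 31 of 587 recurred in each (5.28%). Wider input peaks recurred far more often, 99 of 121 treated and 94 of 119 untreated ones over 200 bp.

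About as many peaks stood beside a peak of the other condition as overlapped one. A further 47 treated peaks (8.01%, 6.07 to 10.5) and 51 untreated peaks (5.11%, 3.91 to 6.66) had a peak of the other list within 1 kb without a shared base, at a median gap of 338 and 336 bp. Over 1 and up to 5 kb away, 5 treated and 9 untreated peaks had their nearest one. Of the peaks with a neighbour within 1 kb, 40 of 47 treated and 42 of 51 untreated ones touched H3K4me3 of either condition. Of all peaks 193 of 587 treated and 572 of 998 untreated ones did. On H3K4me3 of either condition, 16.6% of 193 treated peaks overlapped an untreated peak and 20.7% had one within 1 kb. Off H3K4me3 the shares were 3.05% and 1.78% of 394 treated peaks. For untreated peaks the contrast was weaker. On H3K4me3, 5.59% of 572 overlapped a treated peak and 7.34% had one within 1 kb, against 2.82% and 2.11% of 426 off it. Of treated peaks, 474 of 587 were over 20 kb from any untreated peak, and the median gap was 513 kb.

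**Figure D4:**
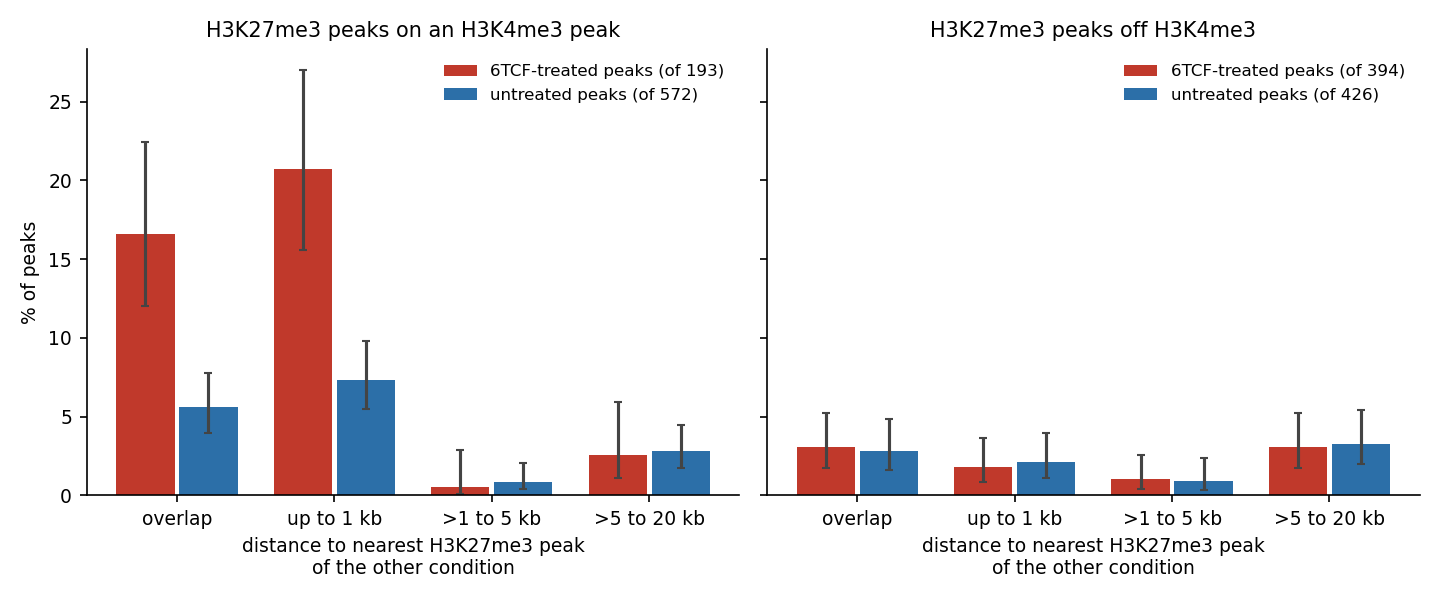
Percent of H3K27me3 peaks clear of input by the distance to the nearest H3K27me3 peak of the other condition, with 95% Wilson intervals, for peaks that overlap an H3K4me3 peak of either condition (left) and for those that do not (right). On H3K4me3, 20.7% of treated peaks have an untreated neighbour within 1 kb without overlap and 0.518% over 1 to 5 kb. For untreated peaks there the shares are 7.34% and 0.874%. The remaining peaks of each group are over 20 kb away and are not drawn.

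Peaks that recurred fell into nearly identical and shifted pairs. The 44 treated and 44 untreated peaks formed 45 overlapping pairs. In 9 of these both ends agreed within 20 bp, a tolerance chosen after the pairs were seen. In 8 of the 9 both members were under 150 bp, with median widths of 84 and 89 bp, narrower than the lists. Of the 9 pairs 4 belonged to the chromosome 11 domain of 6 treated and 5 untreated peaks. In the other 36 pairs the members were 284 bp wide in treated and 391 bp in untreated cells at the median, and their centres were a median of 108.5 bp and at most 529.5 bp apart. Of the 45 pairs 34 had a member on an H3K4me3 peak, 7 of the 9 and 27 of the 36.

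Recurring peaks were more often wider in untreated cells. Among 41 pairs in which each peak overlapped no other, 30 were wider in untreated cells, 10 in treated cells and 1 was equal. The 30 include nearly identical pairs that differ by few bp, such as 322 bp treated against 324 bp untreated. Of the 36 pairs whose ends did not agree within 20 bp, 24 were wider in untreated cells. Those 36 also include peaks that overlapped more than 1 other. In the 41 pairs median widths were 274 bp untreated and 218 bp treated. On the log2 scale treated minus untreated width had a median of -0.18 there (SD 0.66 across the 41 pairs). A ratio of at least 2-fold was found in 7 pairs (17.1%) in favour of untreated and 2 pairs (4.88%) in favour of treated cells. The largest, 4.06-fold, was on chromosome 17, where an untreated peak of 653 bp (chr17:24890023-24890675) met a treated peak of 161 bp (chr17:24890610-24890770) by 66 bp. It was followed by 2.42-fold on chromosome Y (252 against 104 bp, 53 bp from an input peak) and 2.29-fold at chr9:107579169-107579667 (499 against 218 bp). In favour of treated cells were 2.39-fold at chrX:103382067-103382564 (498 against 208 bp) and 2.11-fold in the chromosome 8 domain (186 against 88 bp). At chr19:45298031-45298657 a treated peak of 627 bp lay wholly inside an untreated peak of 956 bp, away from H3K4me3.

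H3K27me3 peaks overlapped H3K4me3 of their own condition at similar rates in treated and untreated cells once peaks of like width were compared. Over all widths 45.7% (42.6 to 48.8) of untreated and 31.3% (27.7 to 35.2) of treated peaks overlapped an H3K4me3 peak of their own condition. Among peaks of up to 150 bp the shares were 12.6% (9.07 to 17.2) untreated and 12.5% (9.24 to 16.7) treated. Among peaks over 150 and up to 200 bp they were 36.2% (29.4 to 43.5) and 36.4% (28.7 to 44.8). Over 200 bp they were 63.5% (59.5 to 67.4) and 64.9% (57.0 to 72.1). The finer classes varied more: over 200 and up to 300 bp the shares were 55.8% (49.0 to 62.4) and 66.3% (55.4 to 75.7), and over 500 bp 68.4% (60.2 to 75.6) and 46.7% (24.8 to 69.9). Input peaks showed a like rise, from 18.7% (15.5 to 22.3) untreated and 20.9% (17.0 to 25.3) treated up to 150 bp to 56.3% (47.3 to 64.9) and 59.5% (50.6 to 67.8) over 200 bp. Up to 150 bp the treated H3K27me3 interval lay below that of input and the untreated intervals met, with peaks that overlap input already dropped. Over 200 bp the intervals of the mark and of input met in both conditions. The difference of conditions over all widths accompanied their unlike mix of widths. With the same number of widest peaks in both lists the shares were 63.0% untreated and 31.3% treated. That setting keeps all 587 treated peaks and drops only the narrowest untreated ones. It makes the widths differ more, so it cannot tell condition from width.

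Against the H3K4me3 list of the other condition the shares parted. Over 200 bp, treated H3K4me3 was met by 78.3% (74.7 to 81.5) of untreated H3K27me3 peaks, and untreated H3K4me3 by 51.0% (43.1 to 58.8) of treated ones. Input peaks of that width did so at 56.3% and 60.3%. In both H3K27me3 lists the treated H3K4me3 list, which is the longer, was thus met more often than the untreated one. Of the untreated peaks 116 met treated H3K4me3 only, and for 64 of them the treated H3K4me3 peak had an untreated partner that did not reach the H3K27me3 peak. The nearest untreated H3K4me3 peak was then a median of 179 bp away, and 51 of the 64 were within 500 bp. In the other 52 the treated H3K4me3 peak had no untreated partner. Of 53 treated H3K27me3 peaks with the same setting the numbers were 31, at a median of 103 bp, and 22. The reverse setting was seen for 10 untreated and 9 treated H3K27me3 peaks.

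H3K27me3 peaks lay across an edge of an H3K4me3 peak, or just outside it, more often than input peaks did. Across an edge of an H3K4me3 peak of their own condition lay 145 untreated peaks (14.5%, 12.5 to 16.9) and 40 treated peaks (6.81%, 5.04 to 9.15). Of untreated input peaks 8 (1.09%, 0.551 to 2.13) and of treated input peaks 6 (0.998%, 0.458 to 2.16) did. Just outside, within 1 kb of an edge, were a further 126 untreated (12.6%, 10.7 to 14.8) and 60 treated peaks (10.2%, 8.02 to 12.9), against 3.12% (2.09 to 4.64) and 4.49% (3.11 to 6.46) of input peaks. Inside lay 31.2% of untreated and 24.5% of treated H3K27me3 peaks, and 25.1% and 29.3% of input peaks. H3K27me3 peaks that overlap input had been dropped, so their positions are not independent of those of input. With such peaks kept, 586 of 1237 untreated and 317 of 821 treated peaks overlapped H3K4me3. Their positions at edges were not counted, and the part of the filter in the contrast was not tested. Untreated H3K27me3 peaks across an edge had a median width of 409 bp and the input peaks 148.5 bp, and a wider peak crosses an edge more easily. For the treated list the medians were 214 and 157 bp. Over 5 kb from H3K4me3 were 34.1% of untreated and 50.1% of treated H3K27me3 peaks, with median widths of 147 and 144 bp, close to the 142 and 146 bp of all input peaks.

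Where H3K27me3 peaks overlapped H3K4me3, they covered a small part of it. At the median they took up 16.6% of an untreated H3K4me3 peak in untreated cells and 10.1% of a treated one in treated cells. The H3K4me3 peaks concerned were narrower than usual, with medians of 1580.5 and 1894 bp against 2115 and 2026 bp for their whole lists. In untreated cells 193 of 456 centres (42.3%, 37.9 to 46.9) were nearer the centre of the H3K4me3 peak than its edge, 208 were nearer the edge and 55 lay outside. In treated cells the numbers were 73 of 184 (39.7%, 32.9 to 46.9), 90 and 21. Untreated H3K27me3 centres on treated H3K4me3 peaks were more central by this share, 312 of 562 (55.5%, 51.4 to 59.6). Treated ones on untreated H3K4me3 peaks were less so, 42 of 140 (30.0%, 23.0 to 38.0). In bp the positions hardly differed between the H3K4me3 lists. Untreated centres lay a median of 424.75 bp from treated and 433.25 bp from untreated H3K4me3 centres, and treated ones 537.5 and 559.5 bp. The treated H3K4me3 peaks met were wider, with medians of 1940 against 1580.5 bp and 1894 against 1591 bp.

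**Figure D5:**
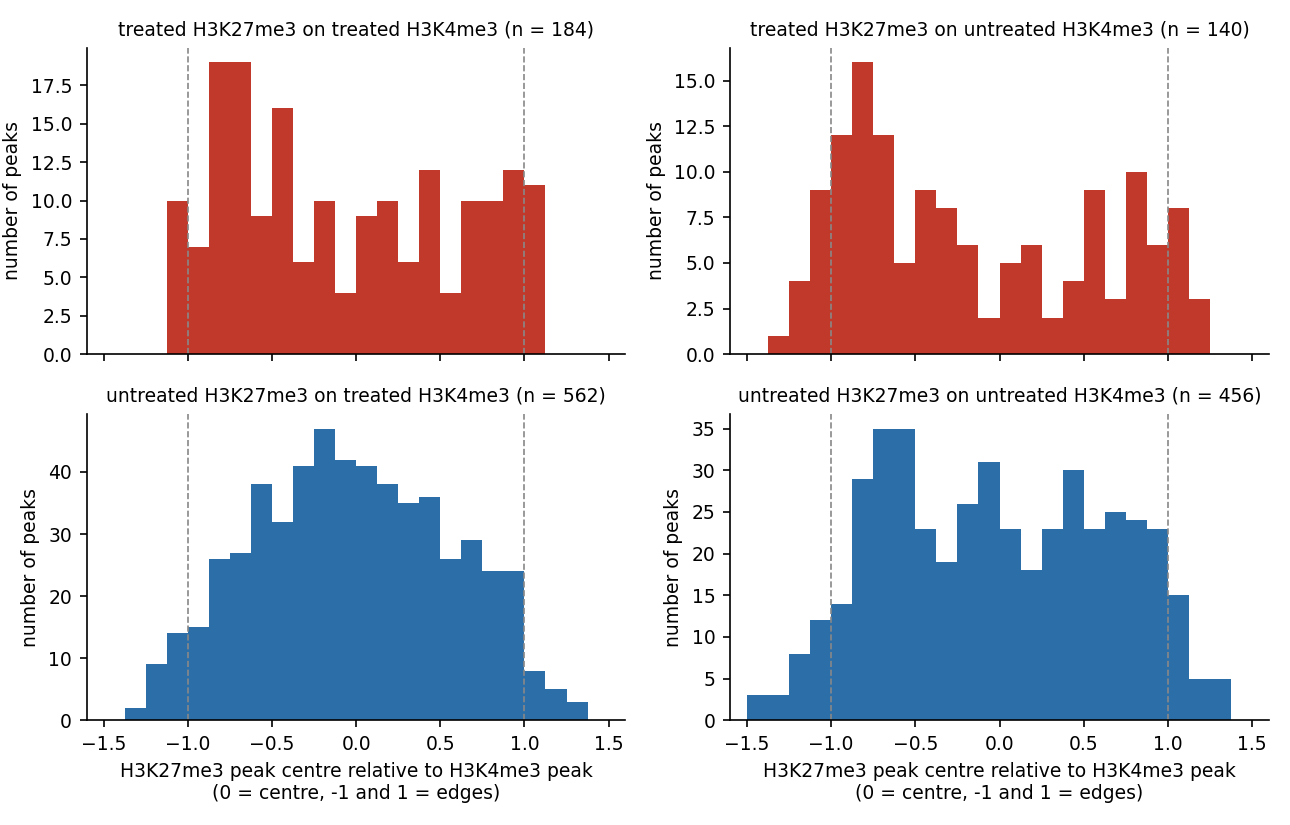
Position of H3K27me3 peak centres within the H3K4me3 peak they overlap, scaled so that 0 is its centre and -1 and 1 (dashed) are its edges, for treated (red) and untreated (blue) H3K27me3 peaks on treated (left) and untreated (right) H3K4me3 peaks, as number of peaks per bin on axes that differ between panels. Untreated H3K27me3 on treated H3K4me3 is highest near 0, while treated H3K27me3 on untreated H3K4me3 is highest towards the edges. The scale follows H3K4me3 width, which differs between the left and right panels.

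The conditions were also compared by H3K4me3 peak and not by shared base. On an H3K4me3 peak this adds peaks without a shared base to the overlapping ones, so more meetings are counted by construction. Of 18185 treated H3K4me3 peaks 175 (0.962%) carried a treated and 504 (2.77%) an untreated H3K27me3 peak, and 58 carried both. These are 33.1% (26.6 to 40.4) of the 175 and 11.5% (9.01 to 14.6) of the 504. By shared base, 16.6% of 193 treated and 5.59% of 572 untreated H3K27me3 peaks on H3K4me3 of either condition recurred. In 25 of the 58 an overlapping pair was present, and in 33 the H3K27me3 peaks of the conditions stood apart, at a median gap of 288 bp. In 12 of these 33 they lay on opposite sides of the centre of the H3K4me3 peak and in 21 on the same side. On untreated H3K4me3 peaks the numbers were 135 and 414, with 41 carrying both.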

How the data were processed

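One peak list per ChIP-seq or input library was used, as deposited by the authors: chromosome, start, end and a constant strand sign, in build mm9, with no score, height, p-value or read number. Named in the submitters' processing notes, without role or order, are MACS 1.4.3, Bowtie2 2.2.5, CASAVA 1.7 and HOMER; for the caller of each list, its threshold and its control the labels say nothing. Depth is unknown. Presence and width of a peak both depend on depth, yield and threshold. Starts were taken as BED starts and are printed 1-based.

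Peaks on the mitochondrial genome (5 untreated) and peaks sharing 1 bp with an input peak of either condition were dropped. Peaks of 1 list with a gap of up to 5 kb were joined into domains. Conditions were compared by an overlap of at least 1 bp in Python 3.11.15 (numpy 2.4.6, pandas 2.3.3, scipy 1.17.1), and overlap and domain counts were checked with bedtools 2.31.1 and on simulated data. Named by rule were the 10 widest peaks and 10 longest domains per list, domains of 4 or more peaks, pairs at least 2-fold apart in width, and the 5 longest domains of 2 or more peaks away from the other condition; the text gives a part of them. Domains of 3 peaks were added afterwards. The comparison and its rule were chosen with earlier results of these data known. Gene lists and start-site distances set in the design were not evaluated, since gene positions in mm9 were not used here.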

Additional observations from a re-analysis of the deposited data

Results flagged for a closer look

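Treated cells had fewer listed peaks than untreated cells for H3K27me3 and more for H3K4me3. The treated minus untreated difference was -411 for H3K27me3 peaks clear of input and 1017 for H3K4me3 peaks, with 1 library behind each number, so whether the marks differ was not tested.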

How the results depend on the processing

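No paired analysis was possible because each group is 1 library. Of 68 alternative values over 20 results, 39 stayed close to the reported value and 29 moved, and the cause was not tested where none is evident from the alternative itself. Peaks at or above the median untreated width numbered 120 treated (47.5 kb) and 499 untreated. Peaks of up to 200 bp, a limit added after seeing the data, covered 62.6 kb in treated and 63.7 kb in untreated cells, where they numbered 431. The share of peaks recurring in the other condition was 4.26% treated and 2.51% untreated with a reciprocal overlap of 50%, 15.5% and 9.52% within 1 kb, 16.4% and 10.4% within 5 kb, and 29.4% and 19.6% without the input filter. With the same number of widest peaks in both lists it was 5.28% in each, a near equality that equal list lengths bring about. Without the input filter the untreated median width was 211 bp, domains of 2 or more peaks numbered 48 and 116, and 38.6% of treated peaks met H3K4me3. Domains within 5 kb of each other were shared at 14.8% and 9.17%. Chromosome 11 held 13.7% of treated and 10.5% of untreated covered bases. With the centre inside H3K4me3 the untreated share on H3K4me3 was 40.2%. It was 19.7% treated and 22.3% untreated for peaks of up to 200 bp, 64.9% and 63.5% over 200 bp, and 63.0% for the widest untreated peaks in equal number; these 3 were added after seeing the data. The share near start sites was not run, since no annotation of the build was used here.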
